A study of Mus musculus with 67 samples.

Results

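The 10 genes described here encode parts of chromatin remodelling complexes, followed across 5 stages of mouse preimplantation development in embryos kept dark or exposed to light. They were Smarca4, Smarca2, Smarca5, Smarcb1, Smarcc1, Smarcc2, Arid1a, Chd1, Chd4 and Chd7, chosen by symbol, and all 10 were found among the 26414 genes of the deposited table. RNA of 67 SMART-seq2 libraries from C57BL/6 embryos, fertilized in vitro, was measured. Embryos of the light group received 5000 lx for 6 h when they had 2 cells, followed by dark culture, while the control group stayed in the dark throughout. With 2 cells there were 7 control and 6 light libraries, with 4 cells 6 and 8, with 8 cells 4 and 8, among morulae 13 and 6, and among blastocysts 3 and 6. The labels give each library an embryo number, whereas the study's methods describe single cells picked from dissociated embryos. Since no source ties the libraries of a group to separate embryos, every p-value below measures the spread between libraries, which may be technical.

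Chromatin remodellers use the energy of ATP to slide, eject or restructure nucleosomes, and so set which stretches of DNA other proteins can reach. SWI/SNF (BAF) complexes are built around 1 of 2 interchangeable motors, BRG1 (Smarca4) or BRM (Smarca2), with the core subunits BAF47 (Smarcb1), BAF155 (Smarcc1) and BAF170 (Smarcc2) and, in the canonical form, the DNA-binding subunit Arid1a. Smarca5 (SNF2H) is the motor of ISWI complexes, which space nucleosomes evenly. Chd1, Chd4 and Chd7 belong to the chromodomain helicase family; Chd4 is the motor of NuRD, which joins remodelling to histone deacetylation. Maternal BRG1 is known to be needed for activation of the embryonic genome in the mouse.

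Values are reads per 1000000 reads of the library (rpm), counted outside CT010467.1 and Gm42418. This pair, which lies in an rRNA locus, took up 54.0% to 89.3% of each library. The reads left over numbered 318176 to 2867032, so that 1 read was worth between 0.349 and 3.14 rpm. Arid1a had a median of 577 reads per library, Smarca5 385 and Smarca4 233, but Smarca2 only 17 and Smarcc2 24. Smarca2 was at 0 in 8 libraries, Smarcc2 in 3 and Smarcb1 in 2, whereas the other 7 genes had reads in all 67. An rpm is a share, so fewer transcripts of a gene and more transcripts of the others cannot be told apart. With amplification and no molecular identifiers, several reads may stem from 1 molecule.

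Some libraries stood apart. The ratio of Gm42418 to CT010467.1 reads separated the light from the control group at 3 stages: control and light libraries lay at 2.34 to 4.03 and 1.58 to 1.77 in 2-cell embryos, at 2.01 to 2.34 and 1.52 to 1.71 in 8-cell embryos, and at 2.34 to 4.14 and 1.49 to 1.67 in morulae. At these stages light and whatever set this ratio cannot be told apart. At the 4-cell stage control libraries 1 and 2 had ratios of 4.35 to 4.55, control libraries 3 to 6 had 1.61 to 1.98, and light libraries had 1.43 to 1.63. The 4 oocyte markers that were listed (Zp3, Gdf9, Bmp15, Oosp1) also summed to 1615 to 3894 rpm in control and 447 to 1433 rpm in light 2-cell libraries. The part of both in the results was not tested. Cumulus and sperm markers summed to at most 46.7 and 8.65 rpm in any library. The 6 listed markers of the 2-cell embryo summed to 40.5 to 229 rpm (median 144) in the 4 control 8-cell libraries. In the 8 light 8-cell libraries they summed to 0.894 to 75.7 rpm (median 3.30). The part of this in the results that use the 8-cell libraries was not tested. Among the blastocysts, control libraries 1 and 2 carried the inner cell mass marker Nanog at 510 and 404 rpm. Control library 3 was at 89.4 rpm, and the 6 light libraries lay between 1.45 and 46.2 rpm. The 8 trophectoderm markers of the blastocysts summed to 970 to 8936 rpm in control and 9579 to 14110 rpm in light, without overlap, and the part of this in the blastocyst results was not tested.

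**Figure D1:**
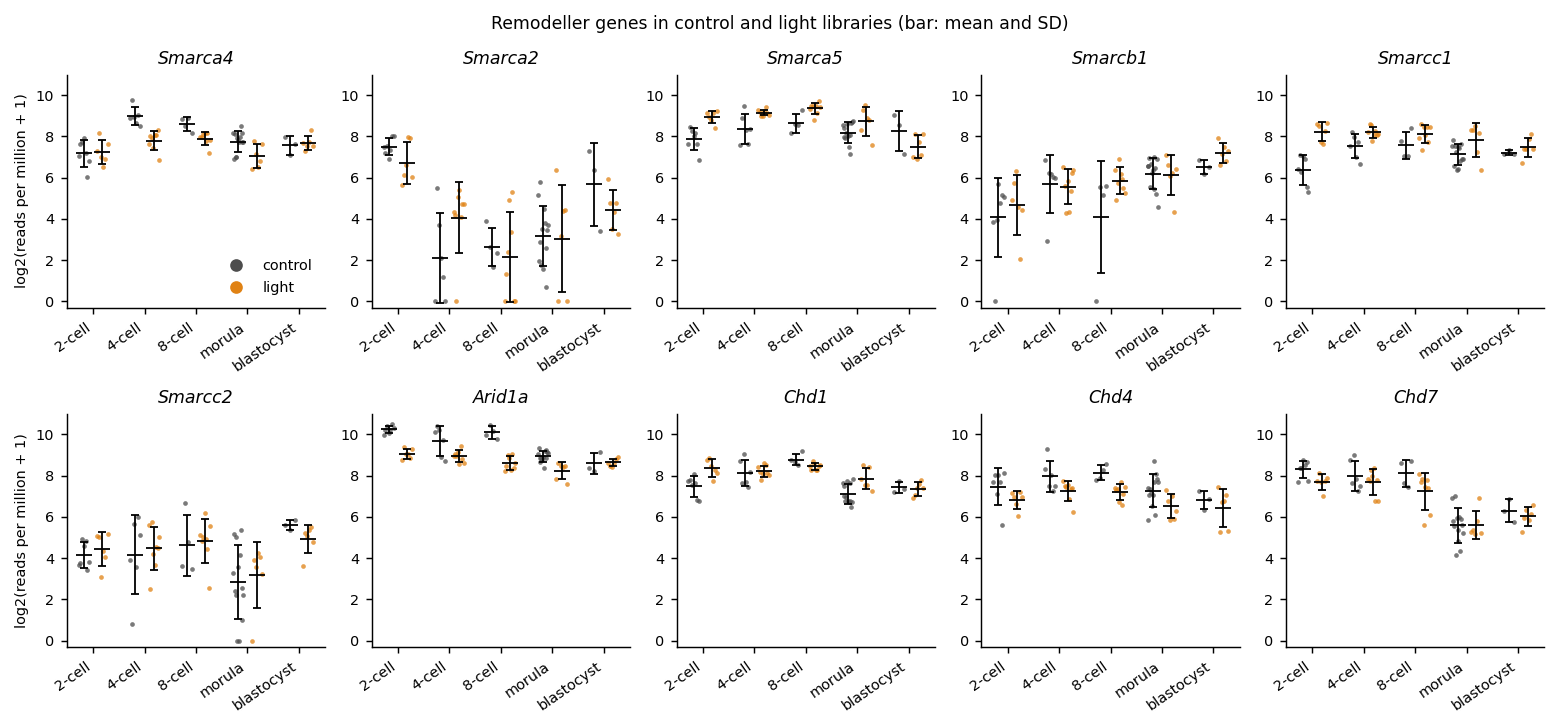
Level of each gene in each library, as log2(rpm + 1) on the vertical axis, by stage and group (grey, control; orange, light); bars show mean and SD over the 3 to 13 libraries of a group. Arid1a is separated at the 2-cell and 8-cell stages, Smarcc1 at the 2-cell stage and Smarca4 at the 4-cell stage.

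To ask at which stages the remodellers differed after exposure, both groups were compared stage by stage. A gene was called when its adjusted p (limma, Benjamini-Hochberg over all genes tested) was under 0.05 and its fold change was at least 2. Of the 10 genes, 3 were called at the 2-cell stage, where 12.0% of 18090 genes were, 1 at the 4-cell stage (2.15% of 15014), 1 at the 8-cell stage (8.49% of 14728), and 0 at the morula (1.59% of 16169) and blastocyst stages (1.90% of 14111). With 1 library left out at the 2-cell stage, 2 to 5 of the 10 genes and 1577 to 2535 of all genes were called. With all libraries these counts were 3 and 2164. The 5 came without light 2-cell library 15, with Smarca2 (-1.04, limma adjusted p = 0.0409) and Chd1 (1.01, limma adjusted p = 0.0118) added. With all libraries the calls were Smarcc1 and Smarca5, higher, and Arid1a, lower, at the 2-cell stage. They were Smarca4, lower, at the 4-cell stage, and Arid1a, lower, at the 8-cell stage. The median log2 fold change of the 10 genes was 0.18, -0.01, -0.40, -0.01 and -0.17 at the 5 stages in order, and that of all genes tested was 0.05, 0.17, 0.08, 0.25 and -0.04. At an unadjusted p under 0.05, 4 of the 10 genes at the morula stage and 0 at the blastocyst stage passed; edgeR and DESeq2 called 0 of them at both stages.

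**Figure D2:**
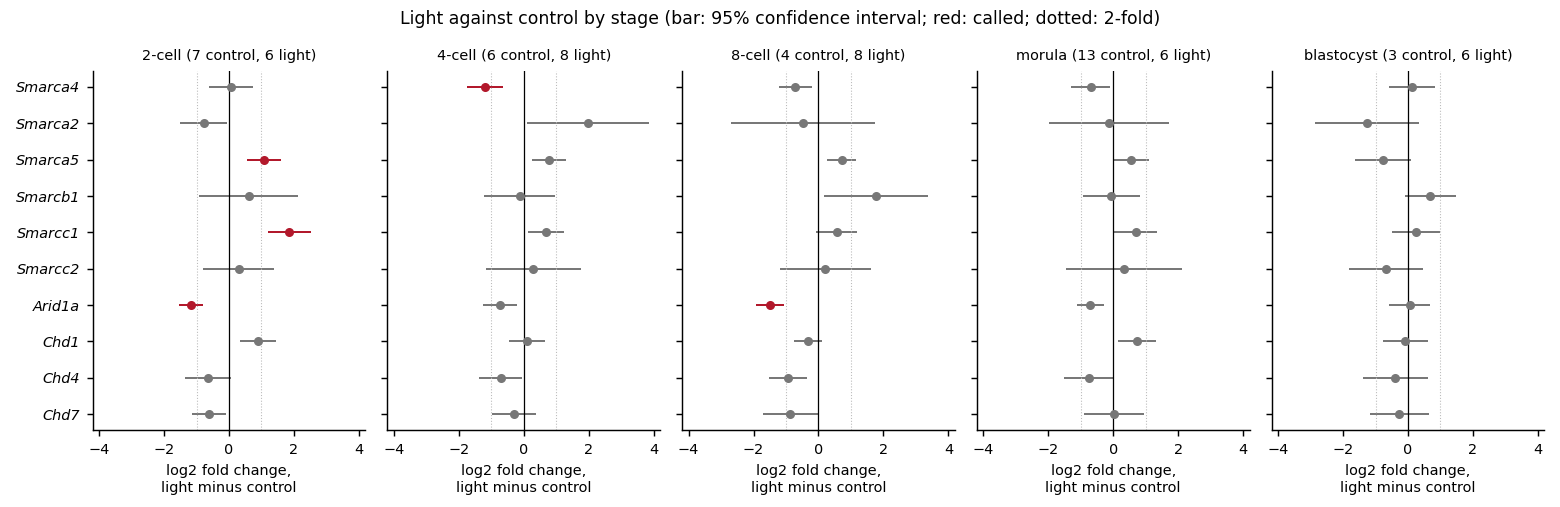
Log2 fold change of light minus control (horizontal axis) for each gene at each stage, with its 95% confidence interval; red points were called and dotted lines mark a 2-fold change. The 2-cell panel holds 3 red points, and 1 lies in each of the 4-cell and 8-cell panels and none in the last 2, where most intervals cross 0.

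Arid1a, the subunit that carries the AT-rich interaction domain, showed the lowest adjusted p of the 10 genes in light against control. Control 2-cell libraries lay at 1019, 1076, 1179, 1182, 1281, 1352 and 1452 rpm. The light libraries lay at 436, 465, 527, 529, 633 and 668 rpm. Every light library was thus below every control library, a separation that 4.81% of the genes tested showed in either direction. The mean was 1220.3 ± 152 in control and 543 ± 91.4 in light (SD, n = 7 and 6), a log2 fold change of -1.17 (SE 0.18, limma adjusted p = 7.3e-05). At the 8-cell stage the 4 control libraries lay at 868, 1016, 1142 and 1422 rpm and the 8 light libraries between 295 and 526.3 rpm, with a median of 373. Again the groups did not overlap, as for 5.61% of genes, and the log2 fold change was -1.48 (SE 0.21, limma adjusted p = 0.000116).

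The 4-cell stage lay between these stages but gave no call for Arid1a. Control libraries were at 419, 480, 840, 1106, 1177 and 1360 rpm and the 8 light libraries at 382 to 699 rpm, so that 2 control libraries fell within the light range. The log2 fold change was -0.73 (95% confidence interval -1.26 to -0.21, limma adjusted p = 0.127). The 2 control libraries with a ratio over 4 held 1106 and 1360 rpm, and the 4 others spread from 419 to 1177 rpm. At the morula stage Arid1a had a median of 473 rpm (326 to 638) in control and 344 rpm (195 to 395) in light (log2 fold change -0.71, limma adjusted p = 0.0623). In blastocysts the means were 402 ± 151 and 401 ± 53.9 rpm, and the interval of the log2 fold change ran from -0.59 to 0.69.

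In the control group Arid1a fell after the 8-cell stage. All 13 control morulae lay below all 4 control 8-cell libraries, a separation seen for 5.84% of genes (log2 fold change -1.15, limma adjusted p = 0.00022). That step called 15.2% of 15710 genes and 3 of the 10 remodellers. In the light group the same step gave -0.38 (limma adjusted p = 0.278). The steps did not pass the test of their difference (0.77, limma adjusted p = 0.171). These comparisons share the 8-cell and morula libraries with those of light against control and are not independent of them.

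To place these members in the genome, promoter sequences were read from RefSeq (GRCm38.p6). The build named in the submitters' processing notes is mm9, and the table itself holds no coordinates. Of the 10 genes, 8 had 1 or 2 entries, 10 in all. The 250 bases before an annotated start are shown for Arid1a (the start farthest upstream) and Smarca4, the members called lower in light, with GC boxes (GGGCGG on either strand) in capitals. Neither window holds an annotated exon of GENCODE M21.
Arid1a, chr4:133756770-133757019, minus strand: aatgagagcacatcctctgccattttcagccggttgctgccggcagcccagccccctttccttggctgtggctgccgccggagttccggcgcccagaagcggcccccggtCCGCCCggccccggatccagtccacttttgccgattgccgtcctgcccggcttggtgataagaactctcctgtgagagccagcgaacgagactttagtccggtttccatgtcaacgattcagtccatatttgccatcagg
Smarca4, chr9:21615919-21616168, plus strand: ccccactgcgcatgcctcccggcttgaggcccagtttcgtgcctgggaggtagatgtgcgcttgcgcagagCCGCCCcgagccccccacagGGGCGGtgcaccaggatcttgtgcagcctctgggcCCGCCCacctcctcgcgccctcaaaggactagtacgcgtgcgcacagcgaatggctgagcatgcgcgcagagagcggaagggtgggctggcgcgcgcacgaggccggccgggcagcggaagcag
The Arid1a window holds 1 GC box and 18 CpGs, and the Smarca4 window 3 GC boxes and 25 CpGs. A GC box was found in 9 of the 10 windows of these genes and in 32.7% of the 32851 RefSeq windows, CCAAT in 1 of 10 and in 33.8%, and TATAAA in 0 of 10 and in 12.4%. The ETS motif CCGGAAG was found in 2 of 10 and in 6.91%. The windows of Chd4 overlap and share a GC box, so the 10 are not separate sequences. CpGs numbered 12 to 40 in the 10 windows, and their median over all windows was 6. A match of letters is a description and says nothing of a factor bound there.

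Among the motors, Smarca4 and Smarca2 moved in opposite directions when control embryos passed from 2 to 4 cells. Smarca4 lay at a median of 145 rpm (63.5 to 243) in control 2-cell libraries and 486 rpm (366 to 883) in control 4-cell libraries. The groups did not overlap (21.9% of genes), and the rise was 1.78 on the log2 scale (SE 0.33, limma adjusted p = 0.000139). Smarca2 lay at 117, 147, 160.1, 179, 185, 256 and 257 rpm in the same 2-cell libraries. It was at 0 in 2 of the 6 control 4-cell libraries and at 1.24, 3.37, 12.2 and 44.4 rpm in the others. The groups again did not overlap (log2 fold change -5.41, SE 0.73, limma adjusted p = 3.71e-06). This step called 3 of the 10 genes and 47.9% of 17247 genes, and the median gene changed by -0.50, so that falls were common. With 4 libraries at or under 4 reads, the size of the Smarca2 fall rests on the pseudocount: it was -6.71 with 0.1 in place of 1.

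After light exposure Smarca2 fell over this step as well, from a median of 82.7 rpm (48.2 to 252) to 22.3 rpm (0 to 41.3), a log2 fold change of -2.65 (SE 0.61, limma adjusted p = 0.00111). The groups did not overlap (12.6% of genes), and Smarca2 was the only 1 of the 10 genes called, where 35.1% of 17256 genes were. Smarca4 went from a mean of 163 ± 71.8 to 229 ± 64.0 rpm (log2 fold change 0.53, limma adjusted p = 0.135). The light 4-cell libraries held Smarca4 at 114, 175, 199, 238, 256, 266, 267 and 318 rpm, all below the lowest control library. In the light comparison at the 4-cell stage the log2 fold change was -1.19 (SE 0.27, limma adjusted p = 0.0216), while 0.819% of genes tested did not overlap. Without control libraries 1 and 2 the groups still did not overlap (366 to 528 against 114 to 318 rpm), but the log2 fold change was -0.9997, just under 2-fold, with an adjusted p of 0.0408 (limma). The step from the 2-cell to the 4-cell stage differed between the groups by -1.25 for Smarca4 (limma adjusted p = 0.0977) and by 2.76 for Smarca2 (limma adjusted p = 0.110). Neither difference passed the test.

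At the later stages neither motor was called in light against control. Smarca4 reached 397 ± 86.9 rpm in control and 242 ± 47.7 rpm in light 8-cell libraries (SD, n = 4 and 8; log2 fold change -0.72, limma adjusted p = 0.0676). Its means at the morula stage were 226 ± 72.1 and 141 ± 57.6 rpm (limma adjusted p = 0.208). At the blastocyst stage they were 195 ± 59.7 and 210.0 ± 57.0 rpm, with an interval of the log2 fold change from -0.59 to 0.83. Smarca2 stayed low from the 4-cell to the morula stage, with group means between 6.38 and 22.1 rpm. It was 153, 81.6 and 9.64 rpm in the 3 control blastocyst libraries; the 2 higher values belong to libraries 1 and 2, which carried the most Nanog. The 6 light blastocyst libraries lay at 8.60 to 59.8 rpm (log2 fold change -1.26, 95% confidence interval -2.87 to 0.35). On the opposite strand of Smarca2 the annotation places 4931403E22Rik, at a median of 6.34 rpm in control and 4.43 rpm in light 2-cell libraries. The strand setting of the counting is not given in the sources used here, so reads of the pair may not be fully separated.

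The ratio of the 2 motors within a library does not depend on how the library was scaled. Log2((Smarca4 reads + 1)/(Smarca2 reads + 1)) was -0.31 ± 1.03 in control and 0.55 ± 1.50 in light 2-cell libraries (SD, n = 7 and 6). At the 4-cell stage it was 7.10 ± 2.05 in control and 3.56 ± 1.38 in light (n = 6 and 8). The control libraries ranged from 4.29 to 9.20 and the light libraries from 2.12 to 6.51. The difference of -3.53 had p = 0.003 (two-sided exact permutation test over 3003 regroupings) and an adjusted p of 0.015 over the 10 ratio tests. With 0.1 read added instead of 1 it was -4.34 and the adjusted p was 0.0666 (exact permutation test). At the 8-cell stage the means were 5.88 ± 0.78 and 6.02 ± 2.37, at the morula stage 4.60 ± 1.50 and 3.67 ± 2.65, and at the blastocyst stage 1.89 ± 2.03 and 3.26 ± 0.95 (adjusted p between 0.476 and 0.911 at these 3 stages and 0.494 at the 2-cell stage, exact permutation tests). In morula libraries with reads on both genes the difference was -2.43 (adjusted p = 0.0378, exact permutation test). This left out only light libraries 1 and 9, which had no Smarca2 reads and the highest light ratios (6.78 and 6.55). Such a choice selects on the outcome in 1 group, so the test cannot decide whether the groups differed.

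**Figure D3:**
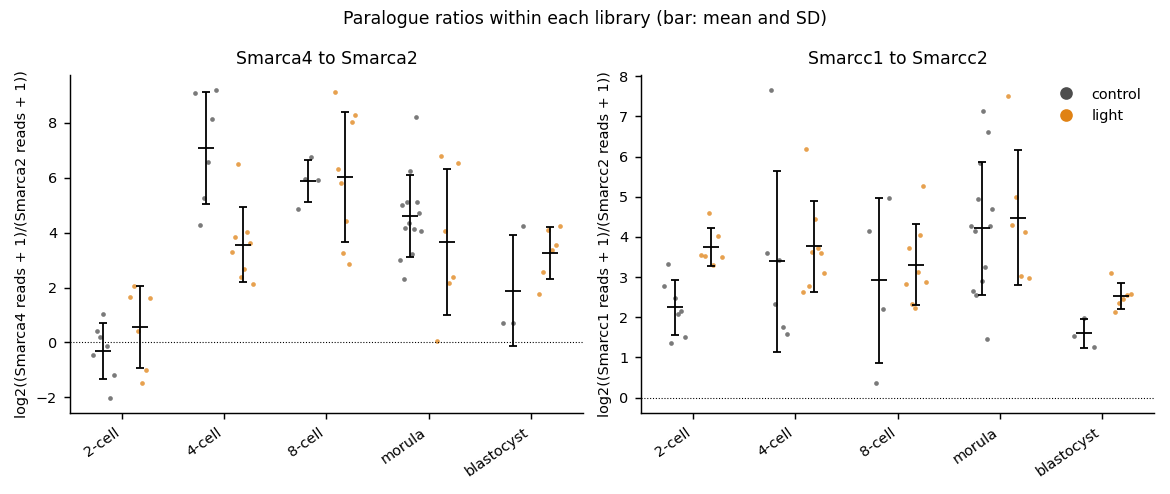
Log2 ratio of reads on Smarca4 to Smarca2 (left) and Smarcc1 to Smarcc2 (right) within each library, by stage (grey, control; orange, light); bars show mean and SD, and the dotted line marks equal reads. The left panel lies near 0 at the 2-cell stage and rises at the 4-cell stage, to a mean of 7.10 in control and 3.56 in light.

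Smarca5, the ISWI motor, was higher in light 2-cell libraries. Control libraries lay at 116, 198, 198, 258, 283, 301 and 352 rpm and light libraries at 343, 447, 489, 560.4, 569 and 592 rpm. Only the highest control library reached above the lowest light library. The log2 fold change was 1.09 (SE 0.25, limma adjusted p = 0.00421), close to the 2-fold threshold: it was 0.99 and 0.97 with TMM scaling and edgeR, 0.99 with DESeq2, and 0.92 without control library 9, all with an adjusted p of at most 0.0119. At the 4-cell stage the 8 light libraries lay between 509 and 679 rpm and the control libraries at 190.3, 198, 321, 323, 472 and 712 rpm. The log2 fold change of 0.78 did not pass (limma adjusted p = 0.105), but without control library 3, the one at 712 rpm, it was 1.00 and called (limma adjusted p = 0.00921). Without it 930 genes in all were called in place of 323.

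At the 8-cell stage Smarca5 was 417 ± 142 rpm in control and 667 ± 119 rpm in light, with an adjusted p of 0.0396 (limma) but a log2 fold change of 0.71, under 2-fold. The morula means were 304.5 ± 93.2 and 464 ± 201 rpm (limma adjusted p = 0.302). In the light group the level then fell to 191 ± 72.8 rpm in blastocysts, from a median of 456 rpm (193 to 747) to 174 rpm (120.5 to 276). That step of -1.23 (SE 0.33, limma adjusted p = 0.0112) was the only call among the 10 genes, where 13.3% of 15068 genes were called. On the deposited scale Smarcc1 (-1.05, limma adjusted p = 0.0488) and Chd1 (-1.18, limma adjusted p = 0.0167) were called as well. There 2848 of 13551 genes were called, 76.0% of them lower, and the median gene changed by -0.45, against 0.01 on the rpm scale. The control blastocysts held 143, 372 and 531 rpm, and the control step was 0.07 (limma adjusted p = 0.921). The difference between the steps was -1.31 (limma adjusted p = 0.223).

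Smarcc1, a scaffold of the SWI/SNF core, rose most in the light 2-cell libraries. Control libraries lay at 38.6, 45.5, 77.4, 85.4, 117, 133 and 134 rpm, and light libraries at 201, 208, 302, 367, 388 and 399 rpm. The groups did not overlap, as for 4.81% of genes. The mean went from 90.2 ± 39.5 to 311 ± 89.0 rpm (SD, n = 7 and 6), a log2 fold change of 1.86 (SE 0.32, limma adjusted p = 0.000248). Its log2 fold changes at the later stages were 0.69, 0.56, 0.70 and 0.26 (the last was -0.51 on the deposited scale), with adjusted p-values (limma) of 0.164, 0.259, 0.255 and 0.791. In control embryos Smarcc1 reached 194 ± 73.1 rpm at the 4-cell stage, a rise of 1.14 over the 2-cell stage (limma adjusted p = 0.0213) that was 0.80 and not called on the deposited scale. In the light group the same step was -0.02, with an interval from -0.48 to 0.44. The difference between the steps, -1.16, did not pass (limma adjusted p = 0.124). The annotation places Dhx30 on the opposite strand of a stretch of Smarcc1, and its mean was 116 ± 36.6 rpm in control and 85.4 ± 43.4 rpm in light 2-cell libraries.

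Smarcc2, its paralogue in the complex, was low throughout, with group means between 11.2 and 48.4 rpm. No stage gave a call, and the log2 fold changes of light against control lay between -0.68 and 0.33. The highest group was the 3 control blastocysts, at 40.1, 48.3 and 56.9 rpm, all above the 13 control morulae (0 to 40.0 rpm, median 4.95), where 8.77% of genes did not overlap. That step of 2.77 had an adjusted p of 0.0977 (limma). Log2((Smarcc1 reads + 1)/(Smarcc2 reads + 1)) was 2.24 ± 0.69 in control and 3.75 ± 0.48 in light 2-cell libraries (p = 0.00175, adjusted p = 0.015, two-sided exact permutation test over 1716 regroupings). At the blastocyst stage it was 1.60 ± 0.36 and 2.53 ± 0.33. There p = 0.0119 is the smallest that 84 regroupings allow, and the adjusted p of 0.0397 (exact permutation test) was lost when any 1 of the 9 libraries was left out. At the 3 stages between them the adjusted p was 0.827 each time (exact permutation test).

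Smarcb1, the core subunit whose loss defines rhabdoid tumours, had no call at any stage. Its mean was 24.6 ± 16.6 rpm in control and 34.7 ± 27.1 rpm in light 2-cell libraries. In blastocysts it was 92.9 ± 22.5 and 155 ± 53.6 rpm. Light against control gave log2 fold changes from -0.12 to 1.77. The highest, at the 8-cell stage, rests on 1 control library at 0 beside 3 at 35.3, 46.0 and 47.2 rpm (limma adjusted p = 0.153). From the control 8-cell to the morula stage the log2 change was 2.11, with an adjusted p of 0.0500233 (limma), just short of a call. The control library at 0 is part of this step too. With 1 control 8-cell library left out the change lay between 0.75 and 2.62. Smarcb1 was called there with TMM scaling, on the deposited scale, and without control 8-cell library 2 or 4.

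Of the chromodomain helicases, 0 of 3 were called in light against control at any stage, although Chd1 and Chd4 were each called at 1 stage when 1 library was left out. Chd1, which binds methylated histone H3 at active genes, was 187 ± 58.9 rpm in control and 342 ± 94.6 rpm in light 2-cell libraries. Its adjusted p of 0.0277 (limma) passed, but the log2 fold change of 0.89 was under 2-fold. It was 1.01 and called without light library 15 (limma adjusted p = 0.0118), and 1.23 and called with a replicate block (limma adjusted p = 0.0472). At the later stages the sign varied, from -0.33 at the 8-cell stage to 0.73 in morulae. In control embryos Chd1 fell after the 8-cell stage, from 366, 402, 438 and 578 rpm to a median of 123 rpm (87.4 to 230.5) in morulae. The groups did not overlap, as for 5.84% of genes (log2 fold change -1.66, SE 0.32, limma adjusted p = 0.000625).

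Chd4, the NuRD motor, had a lower mean in light than in control at all 5 stages, with log2 fold changes of -0.65, -0.71, -0.93, -0.75 and -0.39. At the 4-cell stage the 2 control libraries with a ratio over 4 held 317 and 621 rpm. The 4 other control libraries had a mean of 193 rpm (152 to 258), against 160 rpm (75.4 to 216) in light. At the 8-cell stage control libraries lay at 224, 233, 306 and 384 rpm and light libraries between 94.7 and 209 rpm. The groups did not overlap, as for 5.61% of genes, and the adjusted p was 0.0396 (limma), but the change stayed under 2-fold. Without light library 6 or control library 1 it was -1.003 or -1.04 and called. At the other stages the adjusted p lay between 0.226 and 0.761 (limma).

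Chd7, known from CHARGE syndrome, was the helicase with the widest range over development. Control libraries held a median of 332 rpm (206 to 429.6) at the 2-cell stage and 176, 199.8, 394.5 and 416 rpm at the 8-cell stage. All 13 control morulae were lower than the 8-cell libraries, at a median of 48.3 rpm (17.1 to 127), where 5.84% of genes did not overlap. This step was -2.52 (SE 0.49, limma adjusted p = 0.000824). In the light group Chd7 fell from 172 ± 77.7 to 54.1 ± 33.7 rpm over the same step, -1.62 (SE 0.39, limma adjusted p = 0.00694, where 10.6% of 15545 genes were called). The control and light steps differed by 0.91 (limma adjusted p = 0.552). Light against control gave log2 fold changes between -0.87 and 0.04, with no call.

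Over the remaining steps no member was called on the rpm scale. From the 4-cell to the 8-cell stage 1.86% of 13639 genes passed in control and 2.39% of 15678 in light, with 0 of the 10 genes in each. On the deposited scale Chd7 was called in the light step (-1.01, limma adjusted p = 0.0357). There 1609 of 15176 genes were called, 94.2% of them lower, and the median gene changed by -0.45, against -0.06 on the rpm scale. From the morula to the blastocyst stage 13.2% of 15708 genes passed in control, again with 0 of the 10. edgeR called 0 of them as well, and at an unadjusted p under 0.05 the counts were 0, 1 and 2. The differences between control and light steps were tested for each gene over the 4 steps (40 tests). limma and edgeR called 0 of them, and 9 had an unadjusted p under 0.05. Over all genes 4.06%, 4.78%, 2.41% and 1.50% passed at these steps in order.

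Levels of different genes were compared only per kb of exon (GENCODE M21, protein-coding transcripts). Arid1a led the 10 genes in the control group from the 2-cell to the morula stage, at 142 ± 17.8 and 129.8 ± 27.4 rpm per kb in 2-cell and 8-cell libraries. At the 4-cell stage its 105 ± 45.0 rpm per kb overlapped with 82.2 ± 29.2 for Smarca4 and 60.4 ± 32.2 for Smarca5. At the morula stage its 58.3 ± 10.4 overlapped with 49.8 ± 15.2 for Smarca5 and 48.6 ± 20.8 for Smarcb1. In the light group Smarca5 came first from the 2-cell to the morula stage, with 81.8 ± 15.5, 93.7 ± 9.44, 109 ± 19.5 and 75.9 ± 32.8 rpm per kb, against 63.4 ± 10.7, 58.3 ± 12.0, 46.7 ± 10.7 and 36.1 ± 9.23 for Arid1a. In light morulae Smarcb1 came second, at 48.0 ± 22.9 rpm per kb, which overlapped with Smarca5, as Arid1a did in light 2-cell libraries. In light blastocysts Smarcb1 came first (93.2 ± 32.3 rpm per kb). In control blastocysts Smarca5 did, at 57.0 ± 31.9 rpm per kb, close to 56.0 ± 13.6 for Smarcb1. Smarca2 and Smarcc2 took the last places from the 4-cell to the morula stage in both groups, at most at 7.20 rpm per kb.

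**Figure D4:**
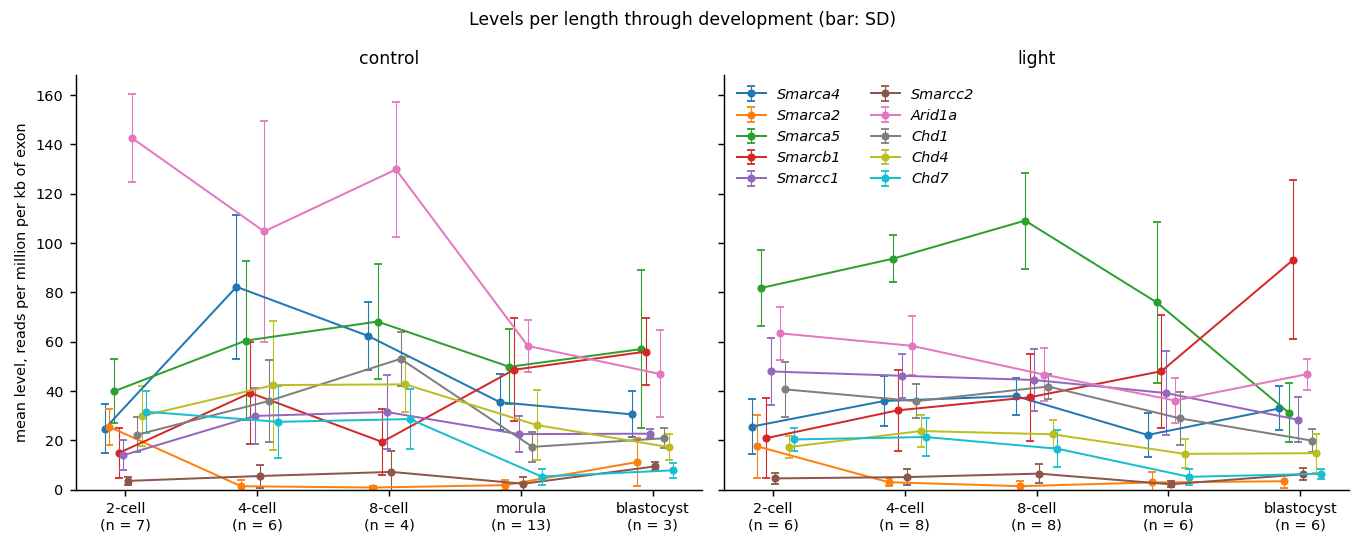
Mean level per length (rpm per kb of exon, vertical axis) of each gene by stage in the control (left) and light (right) groups; bars show SD and n is given under each stage. Up to the morula stage Arid1a is the top line on the left and Smarca5 on the right.

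The rest of the remodeller families was read from fixed lists. At the 2-cell stage 4 of 21 other SWI/SNF genes were called (2 higher, 2 lower), 0 of 9 ISWI genes, 7 of 18 CHD and NuRD genes (3 higher, 4 lower) and 2 of 7 INO80 family genes (both higher), where 12.0% of all genes were. The changes of largest size were those of Actl6a, an actin-related SWI/SNF subunit (34.5 ± 24.8 to 193 ± 74.6 rpm, log2 fold change 3.08, limma adjusted p = 0.00148), Chd3, a NuRD motor like Chd4 (32.6 ± 18.5 to 4.16 ± 3.34 rpm, -2.88, limma adjusted p = 0.00401), and Actr5 of INO80 (16.0 ± 12.5 to 103 ± 67.02 rpm, 2.81, limma adjusted p = 0.00473). Both SWI/SNF genes that fell carry the same kind of DNA-binding domain as Arid1a. They were named after their values were seen: Arid1b went from 297 ± 72.7 to 102 ± 13.1 rpm (-1.50) and Arid2 from 297 ± 48.2 to 119 ± 17.7 rpm (-1.31).

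At the 4-cell stage the histone deacetylase Hdac2 was the only call in these lists (18.7 ± 21.7 to 58.0 ± 21.9 rpm, log2 fold change 2.46, limma adjusted p = 0.047), and it was lost in most alternatives. At the 8-cell stage 4 of 21 SWI/SNF genes were lower and 0 higher, Arid1b among them. Of the 9 ISWI genes 2 were higher and 3 lower, and of the 7 INO80 genes 1 was higher and 1 lower, while 0 of 18 CHD and NuRD genes passed (8.49% of all genes). The largest changes were in Chrac1, a histone-fold partner of Smarca5 (7.72 ± 11.3 to 35.6 ± 22.0 rpm, 2.80, a call lost in 8 of 22 alternatives, edgeR and DESeq2 among them), Actr8 of INO80 (8.91 ± 14.7 to 26.7 ± 9.14 rpm, 2.58, a call lost in 15 of 22) and Bicral, a subunit of the GBAF form of SWI/SNF (99.4 ± 27.3 to 30.1 ± 9.94 rpm, -1.72). limma called 0 genes of these lists at the morula and blastocyst stages, where 12 and 8 had an unadjusted p under 0.05.

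For each member, the genes most like it were sought over the 10 group means of log2(rpm + 1), among 11372 genes. The points share libraries and scaling, so the values are descriptions. Arid1a was nearest to mt-Nd4 (Pearson r = 0.97) and Cyfip2 (0.93), Smarca4 to Ago1 (0.90) and Atxn7l3 (0.89), and Smarca2 to B4galt6 and Znfx1 (both 0.98). Smarca5 was nearest to Nup43 and Wdr70 (both 0.93), Smarcc1 to Wdr92 (0.98) and Plekhf2 (0.97), and Smarcb1 to Mrps27 and Tpm4 (both 0.98). Smarcc2 reached only 0.89 with Ap3s1 and Faddos. Chd1 was nearest to Crybg3 (0.96) and Rtl10 (0.95), Chd4 to Hells (0.92) and Hira (0.91), and Chd7 to Gatad2b and Epc2 (both 0.97).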

How the data were processed

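The deposited table holds signal values of 26414 genes in 67 libraries, which the authors obtained from read counts through a size factor per library; HISAT2, HTSeq 0.9.1 and mm9 are named in the submitters' processing notes. The paper's methods describe RPKM, but the values showed no division by length. Whole reads were recovered for 99.97% or more of the values in every library (tolerance 0.01 read). The size factors rest on 3 genes, 2 of them in an rRNA locus, so reads were scaled to 1000000 reads outside CT010467.1 and Gm42418 (rpm). limma 3.58.1 in R 4.3.3 (lmFit, eBayes with trend) was run on log2(rpm + 1) for genes above 1 rpm in at least 3 of the libraries compared, with each library as 1 replicate and no covariate. Light was compared with control within stages, consecutive stages within groups, and the steps between groups by an interaction term. A gene was called with a Benjamini-Hochberg adjusted p under 0.05 over all genes tested and a fold change of at least 2. Ratios of 2 genes were tested by exact permutation. edgeR 4.0.16 and DESeq2 1.42.0 on the recovered reads were alternatives, as were another pseudocount, no filter, a higher filter, the deposited scale, TMM and median-of-ratios scaling, thinned reads, 1 fit over all libraries, a replicate block and each library left out. The closest of 224 pairs of libraries within a group differed with a chi-square per degree of freedom of 6.64, so none differed by read sampling alone. This cannot tell whether libraries of a pair came from the same embryo. limma was tested on simulated data with 200 genes changed 4-fold: it recovered 48.5% of them at the 2-cell stage and 29.5% at the blastocyst stage, with 0 in the wrong direction. Between 4 (blastocyst) and 8 (morula) unchanged genes were called at a stage.

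All 10 members are given at every stage. Of the family lists, up to 3 called genes of largest fold change are named per comparison of light with control, and for likeness the 2 genes of highest Pearson correlation whose mean is at least 10 rpm in a group, predicted genes left out. The members and lists were chosen with earlier results of these data known. Of the 22, 10, 18 and 7 genes of the SWI/SNF, ISWI, CHD and NuRD, and INO80 lists, 1 was not used here because its symbol is not among the rows. Marker lists of oocyte, 2-cell embryo, inner cell mass, trophectoderm, primitive endoderm, cumulus and sperm were summed per library.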

Additional observations from a re-analysis of the deposited data

Results flagged for a closer look

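Within groups of 4 to 10 libraries, 80 sets of values of the 10 genes were examined for a library far from the rest by Dixon's criterion at the 95% level, and 9 (11.2%) held one, where chance gives about 1 in 20. Smarcb1 held 4 of them, each a low library: 0 rpm in control 2-cell library 11 (the others 13.4 to 50.0), 6.55 rpm in control 4-cell library 2 (the others 61.6 to 114), 0 rpm in control 8-cell library 1 (the others 35.3 to 47.2) and 19.0 rpm in light morula library 6 (the others 67.1 to 134). Chd7 was at 121 rpm in that same light morula library, above the 34.8 to 54.2 rpm of the others. Smarca2 was at 0 rpm in light 4-cell library 14, where the other 7 lay at 15.9 to 41.3 rpm. Smarcc2 was at 0 rpm in light morula library 12 (the others 8.57 to 18.1). Smarca4 was at 144 rpm in light 8-cell library 8 (the others 215 to 289). Chd4 was at 47.7 rpm in control 2-cell library 8 (the others 140 to 281). No difference between control and light steps was called for these genes by limma or edgeR, and 9 of 40 had an unadjusted p under 0.05.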

How the results depend on the processing

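Over 2130 alternative values of the member genes, 2101 kept their side of the call, 14 lost the call and 15 gained it. The sign changed in 145, of which the reported analysis called none. Arid1a at the 2-cell and 8-cell stages and Smarcc1 at the 2-cell stage kept the call in every alternative run, with log2 fold changes of -1.27 to -1.09, -1.59 to -1.36 and 1.68 to 2.58. The cause of the changes below was not tested.

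For light against control, the 2164 genes called at the 2-cell stage were 1120 with a replicate block. The 323 at the 4-cell stage were 212 with a pseudocount of 0.1, 83 without a filter, 214 on the deposited scale, 152 with edgeR, 758 with DESeq2, 555 in 1 fit over all libraries and 0 with the block, and 121 (without control library 5) to 930 (without control library 3) when 1 library was left out. The 257 in morulae were 409 with DESeq2, 1444 in 1 fit and 0 with the block, and 127 (without light library 3) to 345 with 1 library left out. The 268 in blastocysts were 121 with a pseudocount of 0.1, 91 without a filter, 716 on the deposited scale, 164 with edgeR, 488 with DESeq2 and 413 in 1 fit, and 55 (without control library 1) to 452 (without control library 3). For control steps, the 254 genes from 4 to 8 cells were 151 with a pseudocount of 0.1, 92 without a filter, 846 on the deposited scale and 63 with the block, and 146 (without 8-cell library 2) to 290 with 1 library left out. The 2385 from 8 cells to morula were 0 with the block, and the 2068 from morula to blastocyst were 1232 with edgeR, 0 with the block and 1115 to 1230 without 1 blastocyst library. For light steps, the 6060 genes from 2 to 4 cells were 0 with the block, the 375 from 4 to 8 cells were 198 without a filter, 1609 on the deposited scale, 247 with edgeR and 6 with the block, and the 1647 from 8 cells to morula were 84 with the block. The 271 differences between steps from morula to blastocyst were 137 (without control library 1) to 296.

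The Smarca4 to Smarca2 difference at the 4-cell stage was -4.34 with 0.1 read added (adjusted p = 0.0666, exact permutation test). In morulae with reads on both genes it was -2.43 (adjusted p = 0.0378, exact permutation test). That left out only the 2 highest light ratios and decides nothing. The Smarcc1 to Smarcc2 difference in blastocysts was 0.96 with 0.1 read added (adjusted p = 0.0595, exact permutation test) and 0.77 to 1.13 with 1 library left out (adjusted p 0.0595 to 0.119, exact permutation tests). The latter are the smallest adjusted p-values that the remaining regroupings allow beside the other ratio tests.

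On the deposited scale the median gene moved by more than 0.1 on the log2 scale in several comparisons, from -0.04 to -0.64 in blastocysts, and the share of calls that were lower went from 46.7% to 69.7% in morulae and from 45.5% to 92.9% in blastocysts. There Smarca5 was called lower in light blastocysts (-1.52, limma adjusted p = 0.0473), 3 members in place of 1 were called in the light step from morula to blastocyst and 1 in place of 0 in that from 4 to 8 cells, and the control steps of Smarcc1 (0.80) and Arid1a from 8 cells to morula (-0.98) were not called. Over all genes the light steps called 2848 in place of 2002 from morula to blastocyst and 1609 in place of 375 from 4 to 8 cells. Replicate numbers shared between groups did not pair the libraries (correlations -0.067 to 0.062), and no number is shared between light and control at the 8-cell and blastocyst stages. The block, in which only libraries that share a number inform a difference, added Smarca2 (-1.75) and Chd1 (1.23) at the 2-cell stage. It lost the calls of Smarca5 there (1.51), of Smarca4 at the 4-cell stage (-0.96), of Arid1a (-1.41), Chd1 (-1.61) and Chd7 (-2.22) from control 8 cells to morula, and of Smarca2 (-3.96) and Chd7 (-0.95) in the light steps, with limma adjusted p between 0.0602 and 0.464. Leaving out control 4-cell libraries 1 and 2 was chosen after seeing the data.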
